A study of Mus musculus with 12 samples.

Results

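Complement is a cascade of plasma and cell surface proteins that tags targets and calls in immune cells. The classical route starts with the proteases C1r and C1s, of which C1s cuts C4 and C2. In the alternative route factor B joins deposited C3b, and both routes converge on the cleavage of C3. Soluble and membrane regulators, among them the C1 inhibitor, CD55 and CD59, stop the cascade at successive steps. The liver makes most circulating complement, and mesenchymal cells, including those of bone, also transcribe several components. Transcript levels say nothing here about secreted or cleaved protein.

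The 9 genes described were chosen by name: the proteases C1ra and C1s1, the components C4b, C2, C3 and Cfb, and the regulators Serping1, Cd55 and Cd59a, out of 51707 annotated genes. They were followed in 12 RNA sequencing libraries of mouse cells labelled MLO-Y4 and wild type, an osteocyte-like line, all grown on type I collagen coated at 0.15 mg/mL. Undifferentiated and differentiated cells were each measured as control and with BIGH3, giving 4 groups of 3 libraries. BIGH3 is the secreted matrix protein encoded by TGFBI, and treated cells received the recombinant human form. Its dose, the treatment time and what controls received are not given in the labels used here. Differentiated cells of both treatments had medium with 10% serum, ascorbic acid at 50 µg/mL and β-glycerophosphate at 4 mM, so differentiation and direct effects of this medium cannot be told apart. The names of the deposited data carry a prefix, MC3, unlike the label, and which line was used was not tested. Whether the 3 libraries of a group were separate cultures is not stated, so p-values measure only the spread between libraries.

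Depth was 19014492 to 27612155 estimated reads per library, and 14711 genes passed the low-count filter. Of the 9 complement genes 8 passed; Cd55, with 10 reads over all libraries, did not. C1ra, C1s1, C4b, C3 and Cfb had at least 112 reads in every library. C2, Serping1 and Cd59a passed only through the differentiated groups, where they were higher, so a rise between the states was a condition of their being kept, and their values across the states are given as descriptions with no test. The same holds for Cd59a with BIGH3, since it passed through the differentiated controls alone. Of the osteocyte markers, Pdpn stood at 135.8 to 215.7 TPM (transcript abundance scaled to a fixed library sum), Dmp1 at 16.1 to 44.6 TPM and Phex at 1.87 to 22.5 TPM, while Sost had 10 reads in all and Fgf23 had 0. With BIGH3 in differentiated cells Dmp1 and Pdpn rose (log2 fold changes 1.21 and 0.56) and Phex fell (-1.81). Mepe, not tested and with 51 reads in all, had lower TPM in every BIGH3 library (ratio of means 0.048). The osteoblast markers Alpl (-1.70), Bglap (-1.78), Ibsp (-1.31), Col1a1 (-0.30) and Runx2 (-0.16) were called lower with BIGH3 in differentiated cells. Among all genes 22.9% were called lower. Sp7, highest in differentiated controls, had lower TPM in every differentiated BIGH3 library (ratio of means 0.216), a description with no test. Sp7 and Ibsp had only 112 and 139 reads in all, while Col1a1 stood at 374.1 to 819.7 TPM. Summed over 15 liver markers, CPM (counts scaled to library size) were highest in undifferentiated control 2 (123.9), differentiated BIGH3 3 (81.1) and differentiated control 2 (57.2), against 4.89 to 26.8 in the other 9 libraries. Macrophage markers summed to 32.5 to 35.6 CPM in undifferentiated controls and to 31.8 to 34.6 in undifferentiated BIGH3 cells. They summed to 53.4 to 58.1 CPM once differentiated and to 58.4 to 70.1 CPM with BIGH3 as well. Lyz2 and Cd14 carried that sum, and 5 of its 9 genes passed the filter. With BIGH3 in differentiated cells Cd14 rose (1.93, adjusted p = 5.87e-11) as C3 did, Lyz2 fell (-0.28, 0.00253), and Fcer1g went from 10 to 86 reads over the 3 libraries of each group. Tyrobp had 0 reads in every library, and Ptprc, Csf1r and Adgre1 reached at most 0.443 TPM. Of the 15 liver genes 11 passed the filter; Afp had 3218 reads over all libraries and up to 47.0 TPM, Alb 14 reads and Serpina1a 0. Trf alone of the 11 was called with BIGH3 in differentiated cells (1.90, adjusted p = 0.0327), and in BIGH3 treated cells it rose by 5.32 between the states (0.000545). The part of the liver and macrophage transcripts in the results below was not tested. Values given without the 3 libraries richest in liver transcripts still include such transcripts. Liver markers summed to 25.4 and 26.6 CPM in differentiated BIGH3 1 and 2, against 9.80 and 11.6 CPM in differentiated control 1 and 3.

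RefSeq promoter windows on GRCm38.p6, 250 bases before and 50 after the annotated start, were on hand for 5 of the 9 genes: C3, C1ra, C1s1, Cd55 and Cd59a. Those of C3, which had the largest BIGH3 response of the 9, and of the neighbouring protease genes C1ra and C1s1, whose levels moved together, are shown 5′ to 3′ on the gene's strand, with searched motifs in capitals. The searched letters, on both strands, were TTGCNNAA (C/EBP), GGGA and TTCC spaced by NN (NF-kB), TTCNNNGAA (STAT), GAAA and GAAA spaced by NN (IRF), and the core promoter box TATAAA.
C3, chr17:57228087-57228386, minus strand: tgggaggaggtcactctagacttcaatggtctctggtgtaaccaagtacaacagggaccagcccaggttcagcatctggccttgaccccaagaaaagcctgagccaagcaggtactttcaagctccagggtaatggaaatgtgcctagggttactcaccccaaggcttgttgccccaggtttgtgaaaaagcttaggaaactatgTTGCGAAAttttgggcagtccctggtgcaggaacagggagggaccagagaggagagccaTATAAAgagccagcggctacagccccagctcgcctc
C1ra, chr6:124512371-124512670, plus strand: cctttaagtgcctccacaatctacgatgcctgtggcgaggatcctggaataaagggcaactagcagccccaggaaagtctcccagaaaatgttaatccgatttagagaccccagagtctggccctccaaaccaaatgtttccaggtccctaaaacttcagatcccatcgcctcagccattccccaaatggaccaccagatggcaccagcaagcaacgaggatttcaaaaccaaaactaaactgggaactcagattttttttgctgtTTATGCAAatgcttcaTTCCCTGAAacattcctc
C1s1, chr6:124542310-124542609, minus strand: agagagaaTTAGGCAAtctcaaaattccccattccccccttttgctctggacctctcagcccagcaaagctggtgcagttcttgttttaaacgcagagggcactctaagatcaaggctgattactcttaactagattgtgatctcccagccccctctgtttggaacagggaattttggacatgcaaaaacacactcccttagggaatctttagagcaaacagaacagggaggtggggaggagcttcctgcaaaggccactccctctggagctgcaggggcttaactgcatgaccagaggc

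The C3 window held the C/EBP letters as TTGCGAAA with their first base at position -45 from the annotated start, and TATAAA at position 14. C1ra held the C/EBP letters on the opposite strand, written TTATGCAA on the gene's strand, at position 16, and the STAT letters as TTCCCTGAA, which read the same way on both strands, at position 32. Positions count from the RefSeq start. In GENCODE M21 the C1ra gene begins upstream of that start, at 124512405, inside the window shown. The first C1s1 start had the C/EBP letters on the opposite strand at position -242, and the window of its second annotated start had none of the 5 motifs. Cd59a held the IRF letters as GAAAGGGAAA at position -187, and Cd55 held none. Over 32544 promoter windows of the same length, the C/EBP letters were present in 10.8%, the STAT letters in 8.33%, the IRF letters in 3.45%, TATAAA in 13.6% and the NF-kB letters in 1.47%. The matches describe letters and not binding sites.

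With BIGH3 in differentiated cells, the 5 genes with at least 112 reads in every library rose, and so did Serping1, while in undifferentiated cells none of the 8 genes passed the test. C3 rose most, 21.8-fold. The regulator Serping1 rose 5.54-fold, C4b 3.39-fold, Cfb 2.78-fold, C1ra 1.54-fold and C1s1 1.40-fold. Cd59a was lower, from few reads, and C2 was not called. A gene was called at an adjusted p below 0.05 in edgeR's quasi-likelihood test over all 14711 genes. By that rule 45.5% of all genes were called with BIGH3 in differentiated cells, 22.6% higher and 22.9% lower, and 0.0204% in undifferentiated cells. In CPM the libraries of both groups did not overlap for all 5 of these genes in differentiated cells, where 55.1% of all genes did not overlap, and for C3 alone of the 5 in undifferentiated cells, where 8.96% did not. Leaving out the 3 libraries richest in liver transcripts, the differentiated BIGH3 values on the log2 scale were 4.44 for C3, 2.57 for Serping1, 1.67 for C4b, 1.48 for Cfb, 0.60 for C1ra and 0.43 for C1s1, all still called. The undifferentiated test called 3 genes in all, 599 genes had an unadjusted p below 0.05 there, and DESeq2 called none of the 9 complement genes described.

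**Figure D1:**
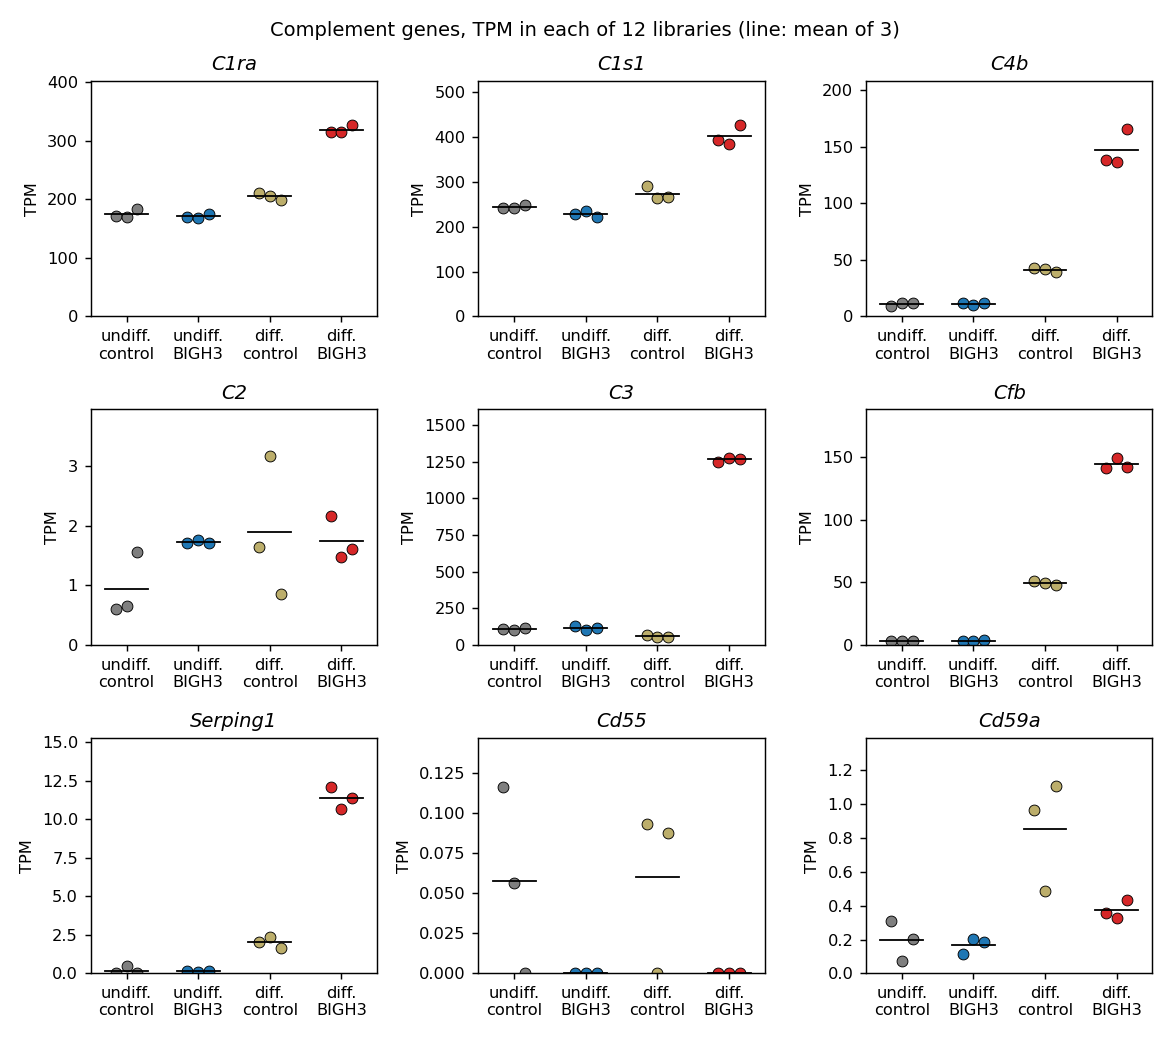
TPM of each of the 9 complement genes (linear vertical axes, 1 scale per gene) in 4 groups, with 1 point per library and a line at the mean of 3. The 3 differentiated BIGH3 libraries lie above all others for C1ra, C1s1, C4b, C3, Cfb and Serping1, and C3 is lowest in differentiated controls.

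The medium for differentiation had its own pattern without BIGH3. Cfb rose 18.9-fold and C4b 4.90-fold, C1ra and C1s1 rose 1.42-fold and 1.44-fold, and C3 fell. Thus 4 of these 5 genes rose and 1 fell, where 57.7% of all genes were called, 29.1% higher and 28.6% lower. Among BIGH3 treated cells all 5 rose between the states, where 56.6% of all genes were called, 28.9% higher and 27.7% lower. Without the liver-rich libraries these calls held for all 5 genes. C2, Serping1 and Cd59a, kept through the differentiated groups, are not counted here and are described below. CPM did not overlap between the states for any of the 5 genes, in controls (63.4% of all genes) or with BIGH3 (62.6%). The comparisons share libraries: differentiated controls enter both the BIGH3 and the medium comparison. In these bulk samples more cells making a transcript and more transcript per cell cannot be told apart.

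**Figure D2:**
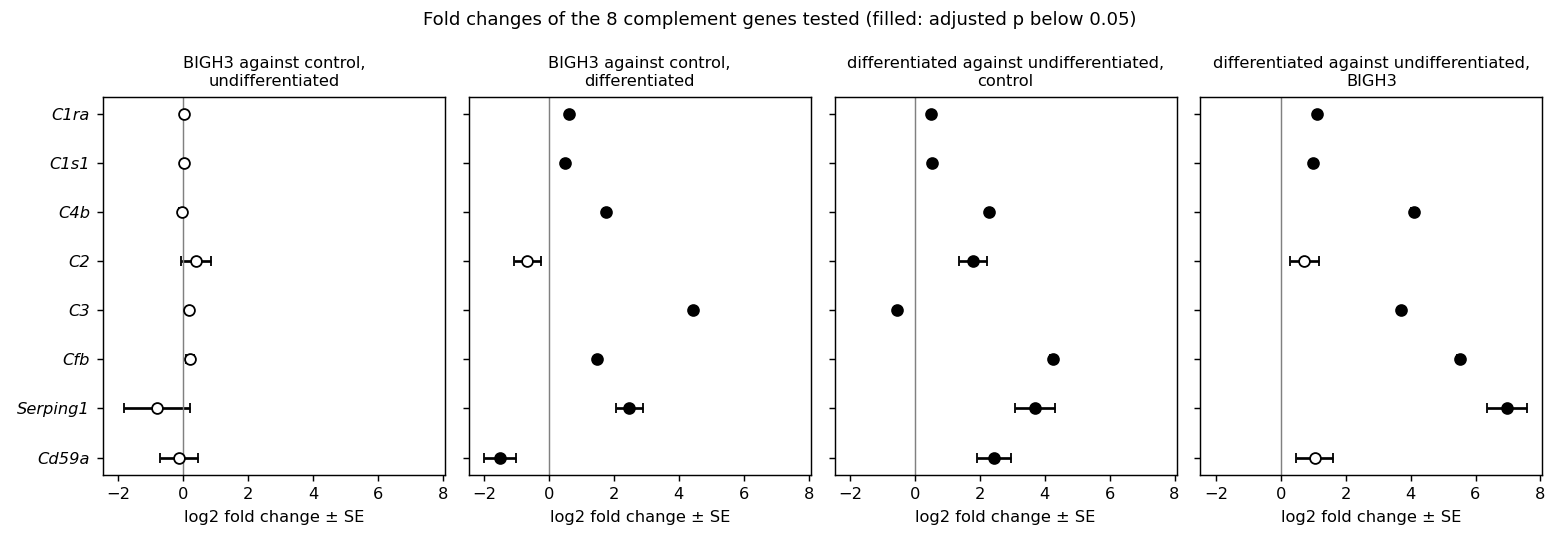
Log2 fold change with its standard error for the 8 complement genes tested, in 4 comparisons named above the panels; filled points passed an adjusted p below 0.05. No point is filled for BIGH3 in undifferentiated cells, and C3 is the only gene below 0 for differentiation in controls. C2, Serping1 and Cd59a were kept through the differentiated groups, so their filled points across the states, and that of Cd59a with BIGH3, are descriptions.

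The classical route opens with C1r and C1s, serine proteases that sit on C1q. C1ra (ENSMUSG00000055172.10, GRCm38 chromosome 6, 124512405 to 124523443, plus strand) stood at 171.5, 170.4 and 183.8 TPM in undifferentiated controls and at 170.3, 167.4 and 175.5 TPM with BIGH3. In differentiated controls it had 210.8, 205.7 and 199.3 TPM, and with BIGH3 315.8, 315.0 and 327.1 TPM. The undifferentiated groups overlapped, all differentiated controls lay above them, and all differentiated BIGH3 libraries lay above those. BIGH3 raised C1ra in differentiated cells by a log2 fold change of 0.62 ± 0.05 (SE, adjusted p = 2.97e-10), against 0.03 ± 0.05 in undifferentiated cells (adjusted p = 1.00). The medium raised it by 0.51 ± 0.05 (adjusted p = 5.42e-09).

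C1s1, the gene of C1s (ENSMUSG00000038521.17, chromosome 6, 124530345 to 124542359, minus strand), is the neighbour of C1ra. It had 240.9, 241.5 and 247.8 TPM in undifferentiated controls, 228.7, 235.0 and 222.4 TPM with BIGH3, 290.0, 262.8 and 266.2 TPM in differentiated controls and 391.8, 385.0 and 426.6 TPM in differentiated BIGH3 cells. The undifferentiated BIGH3 libraries were all slightly below their controls in TPM but overlapped them in CPM. The differentiated BIGH3 libraries were above all others, with a rise of 0.48 ± 0.04 on the log2 scale (adjusted p = 1.54e-08). The medium alone gave 0.53 ± 0.04 (adjusted p = 2.72e-09). On log2 TPM the medium effect was smaller for both proteases, 0.23 for C1ra and 0.16 for C1s1, both still called, and the median of all genes was shifted by -0.28 on that scale.

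The ratio of C1s1 to C1ra, both in TPM, moved little: 1.39 ± 0.04 in undifferentiated controls, 1.34 ± 0.07 with BIGH3, 1.33 ± 0.05 in differentiated controls and 1.26 ± 0.04 in differentiated BIGH3 cells (SD, n = 3). Over the 12 libraries the log2 CPM of these genes had a Pearson r of 0.99, a description that rests mostly on the differences between the 4 groups. C1q, whose chains carry the proteases, was nearly absent: C1qa had 3 reads over 12 libraries, C1qb 17 and C1qc 0.

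C4 is the first substrate of C1s, and C4b is its main mouse gene (ENSMUSG00000073418.4, chromosome 17, 34728380 to 34743882, minus strand). C4b stood at 9.13, 11.9 and 12.3 TPM in undifferentiated controls and at 11.7, 10.6 and 11.9 TPM with BIGH3, which overlapped. It had 42.7, 42.3 and 39.3 TPM in differentiated controls and 138.5, 136.6 and 165.7 TPM in differentiated BIGH3 cells. These steps did not overlap. The medium raised C4b by a log2 fold change of 2.29 ± 0.08 (adjusted p = 1.97e-13), and BIGH3 raised it by a further 1.76 ± 0.08 in differentiated cells (adjusted p = 4.29e-12). In undifferentiated cells the BIGH3 value was -0.05 ± 0.08 (adjusted p = 1.00). The highest library, differentiated BIGH3 3, is one of the 3 richest in liver transcripts. Without those 3 libraries the BIGH3 rise in differentiated cells was 1.67.

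C2 is the protease that C1s activates next (ENSMUSG00000024371.14, chromosome 17, 34862604 to 34898265, minus strand). It was scarce, with 3, 9 and 11 estimated reads in undifferentiated controls, 10, 9 and 9 with BIGH3, 23, 25 and 23 in differentiated controls and 16, 16 and 7 in differentiated BIGH3 cells. In CPM the differentiated controls were above all undifferentiated controls, with a ratio of read rates of 3.42 (95% counting interval 2.11 to 5.73) and a fitted log2 difference of 1.79, which was 1.25 when gene length was modelled and 0.68 on log2 TPM. In TPM the differentiated controls, at 1.64, 3.17 and 0.86, overlapped the undifferentiated controls, at 0.60, 0.66 and 1.55. BIGH3 gave -0.68 ± 0.42 in differentiated cells, which was not called (adjusted p = 0.200).

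Reads assigned to C2 were mostly not those of its coding transcripts. Over 12 libraries 58.9% of them, 95.0 reads, went to processed transcripts and 41.1%, 66.2 reads, to protein-coding ones. Its leading transcript has 4 exons and 535 bases at chr17:34893353-34898265, of which 161 lie in exons of Zbtb12 on the opposite strand. Since the strand of the libraries is not given, reads of that transcript and of Zbtb12 cannot be told apart in those bases. In the annotation C2 also shares 42.8% of its exonic bases with Gm20547, a readthrough gene that joins C2 and Cfb.

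C3 is where the routes meet, and its cleavage releases C3a and the surface tag C3b. C3 (ENSMUSG00000024164.15, chromosome 17, 57203970 to 57228136, minus strand) had 106.1, 100.2 and 113.3 TPM in undifferentiated controls and 126.7, 104.5 and 112.2 TPM with BIGH3. In differentiated controls it stood at 68.8, 57.2 and 54.9 TPM, and in differentiated BIGH3 cells at 1249, 1276 and 1267 TPM. The undifferentiated groups overlapped in TPM, every differentiated control was below them, and the lowest differentiated BIGH3 library (1249 TPM) was far above the highest of the other groups (126.7 TPM). Of C1ra, C1s1, C4b, C3 and Cfb, C3 was thus the one that the medium lowered in controls, by -0.56 ± 0.05 on the log2 scale (adjusted p = 2.02e-09). C2, Serping1 and Cd59a, kept through the differentiated groups, are not counted in that. Of the 8 genes tested C3 was the one raised most by BIGH3 in differentiated cells, by 4.45 ± 0.05 (adjusted p = 7.47e-23).

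In rank by mean TPM among the 14711 genes, C3 was number 1276 in undifferentiated controls, 1132 with BIGH3, 2011 in differentiated controls and 91 in differentiated BIGH3 cells. Its share of all reads was 0.0367%, 0.0405%, 0.0223% and 0.490% in the same order. In undifferentiated cells all BIGH3 libraries were above their controls in CPM, with means of 389.8 ± 10.3 against 346.2 ± 18.1 (SD, n = 3). That difference, 0.17 ± 0.05 on the log2 scale, was not called (adjusted p = 1.00; 0.217 to 1.00 over the alternatives), and the groups overlapped in TPM. Between the states BIGH3 treated cells had a log2 rise of 3.71 ± 0.05 (adjusted p = 6.64e-22).

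Cfb encodes factor B, the protease of the alternative route's C3 convertase (ENSMUSG00000090231.10, chromosome 17, 34856374 to 34862518, minus strand), and lies beside C2. It was near 3 TPM in undifferentiated cells, with 2.80, 3.02 and 3.46 TPM in controls and 3.08, 3.19 and 4.04 TPM with BIGH3. It reached 50.8, 49.4 and 47.9 TPM in differentiated controls and 141.4, 149.1 and 141.8 TPM in differentiated BIGH3 cells. No differentiated library overlapped an undifferentiated one. The medium raised Cfb by 4.24 ± 0.09 on the log2 scale (adjusted p = 3.89e-18), and BIGH3 added 1.47 ± 0.07 in differentiated cells (adjusted p = 6.20e-13) against 0.21 ± 0.11 in undifferentiated cells (adjusted p = 1.00). Between the states the BIGH3 treated cells differed by 5.51 ± 0.09, a 45.5-fold rise.

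The order of the members' mean TPM therefore changed with the group. Undifferentiated controls had C1s1 at 243.4, C1ra at 175.3, C3 at 106.6, C4b at 11.1 and Cfb at 3.09, followed by C2 at 0.94 and then Cd59a, Serping1 and Cd55. In differentiated controls C3, at 60.3, fell close to Cfb, at 49.4, and C4b, at 41.4, and the lowest C3 library (54.9) was still above the highest Cfb library (50.8). In differentiated BIGH3 cells C3, at 1264 ± 14, was above C1s1 (401.1 ± 22.3) and C1ra (319.3 ± 6.8), while C4b (146.9 ± 16.3) and Cfb (144.1 ± 4.3) overlapped (SD, n = 3). The ratio of C3 to Cfb in TPM was 34.7 ± 2.9 in undifferentiated controls, 33.9 ± 6.7 with BIGH3, 1.22 ± 0.12 in differentiated controls and 8.77 ± 0.19 in differentiated BIGH3 cells.

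Serping1 encodes the C1 inhibitor, which inactivates C1r and C1s (ENSMUSG00000023224.12, chromosome 2, 84765387 to 84775444, minus strand). It had 1, 14 and 0 reads in undifferentiated controls and 4, 2 and 2 with BIGH3, then 66, 63 and 52 in differentiated controls and 361, 267 and 251 in differentiated BIGH3 cells. In TPM the differentiated controls had 2.02, 2.39 and 1.63, and the differentiated BIGH3 libraries 12.1, 10.7 and 11.4. These groups did not overlap each other or the undifferentiated libraries, which reached at most 0.503 TPM. BIGH3 raised Serping1 in differentiated cells by 2.47 ± 0.41 on the log2 scale (adjusted p = 0.000669), and by 2.57 once the 3 libraries richest in liver transcripts were left out. In undifferentiated cells its value was -0.80 ± 1.02 (adjusted p = 1.00), and 2.22 (adjusted p = 0.992) without those libraries.

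The size of the medium effect on Serping1 turned on undifferentiated control 2, the library with most liver transcripts, which held 14 of that group's 15 reads. Between controls the ratio of read rates was 13.4 (95% counting interval 7.89 to 24.4), and the fitted log2 difference was 3.70. Without the 3 libraries richest in liver transcripts, 1 read against 118 gave a ratio of 128 (22.6 to 5102) and a fitted difference of 6.65. In BIGH3 treated cells, 8 reads against 879 gave a ratio of 132 (66.6 to 306.3), and without those libraries 136 (68.4 to 315.4). Counting intervals cover counting error only.

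Cd55 encodes the decay accelerating factor that takes C3 convertases apart (ENSMUSG00000026399.12, chromosome 1, 130439027 to 130462744, minus strand). It had 4, 1 and 0 reads in undifferentiated controls, 0 in each undifferentiated BIGH3 library, 1, 0 and 4 in differentiated controls and 0 in each differentiated BIGH3 library. No level above 0.12 TPM was measured, and 8 of 12 libraries had 0 reads. A change in Cd55 was not detectable at this depth.

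Cd59a encodes an inhibitor of the membrane attack complex (ENSMUSG00000032679.12, chromosome 2, 104095801 to 104115354, plus strand). It had 7, 2 and 6 reads in undifferentiated controls and 3, 5 and 5 with BIGH3, 29, 14 and 33 in differentiated controls and 10, 8 and 5 in differentiated BIGH3 cells. In TPM the differentiated controls, at 0.97, 0.49 and 1.11, were all above the differentiated BIGH3 libraries, at 0.36, 0.33 and 0.43. Their ratio of read rates, BIGH3 to control, was 0.348 (95% counting interval 0.208 to 0.561), a fitted log2 difference of -1.51. Between the states the controls had a ratio of 5.61 (3.20 to 10.5), a fitted difference of 2.44. On log2(TPM + 0.5), a scale that understates changes of low genes, BIGH3 gave -0.61 and the medium 0.94 for Cd59a, and the medium gave 1.95 for Serping1 in controls and 4.24 with BIGH3.

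Whether the BIGH3 effect differed between the states was tested by the interaction term. It was called for C1ra, C1s1, C4b, C3 and Cfb, all with the higher effect in differentiated cells, where 32.2% of all genes were called and 16.2% in that direction. The difference in log2 effect was 4.27 ± 0.07 for C3 (adjusted p = 2.39e-20), 1.81 ± 0.11 for C4b (1.27e-09), 1.27 ± 0.13 for Cfb (3.37e-07), 0.60 ± 0.06 for C1ra (2.55e-07) and 0.47 ± 0.06 for C1s1 (5.60e-06). These 5 were called under every alternative run. Serping1, C2 and Cd59a were kept through the differentiated groups, so their values here are descriptions with no test. They were 3.27 ± 1.12 for Serping1, -1.07 ± 0.63 for C2 and -1.39 ± 0.78 for Cd59a. Without undifferentiated control 2 the Serping1 value was 0.25.

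Near-identical genes could take or lend reads, so each was read beside its member. C4a, whose sequence matches 48.8% of the 31-base words of the leading C4b transcript, had group means of 1.39 to 2.51 TPM and was not called for BIGH3 in differentiated cells (0.59 ± 0.33, adjusted p = 0.148). C1rb, with 56.9% of words shared with C1ra, and C1s2, with 37.0% shared with C1s1, reached at most 1.05 TPM in any library. Gm20547 shares 81.5% of the words of the leading Cfb transcript and stayed at or below 0.25 TPM. Cd55b had 0 reads and Cd59b had 9 over 12 libraries. With the partners' reads added to each member, no call of a member changed.

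The transcripts behind the main genes were largely coding. C3-201, the coding transcript of 5136 bases, held 88.2% ± 3.6 of the TPM of C3 in undifferentiated controls, 89.4% ± 5.1 with BIGH3, 87.5% ± 7.1 in differentiated controls and 91.5% ± 0.9 in differentiated BIGH3 cells (SD, n = 3). C4b-201 held 88.8% ± 7.2, 79.5% ± 4.3, 96.3% ± 1.0 and 92.6% ± 3.5 in the same order, the rest being mostly a retained-intron transcript. For C1s1 the retained-intron transcript C1s1-201 took 11.6% ± 0.5 and 9.87% ± 0.72 in undifferentiated cells and 6.61% ± 1.63 and 7.23% ± 1.10 in differentiated cells. The short coding transcript C1s1-205 took 3.01% ± 0.66, 2.78% ± 0.69, 2.34% ± 0.36 and 5.39% ± 0.37, so its 3 differentiated BIGH3 libraries, at 5.08% to 5.80%, were above all others. Cfb-201 and Cfb-202, of 2737 and 2751 bases, were not separated stably: Cfb-201 took 51.7%, 42.5% and 1.93% of Cfb in the 3 differentiated controls. These shares were not tested. Of the exonic bases of C1s1, 18.4% overlap Gm16567 on the opposite strand.

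**Figure D3:**
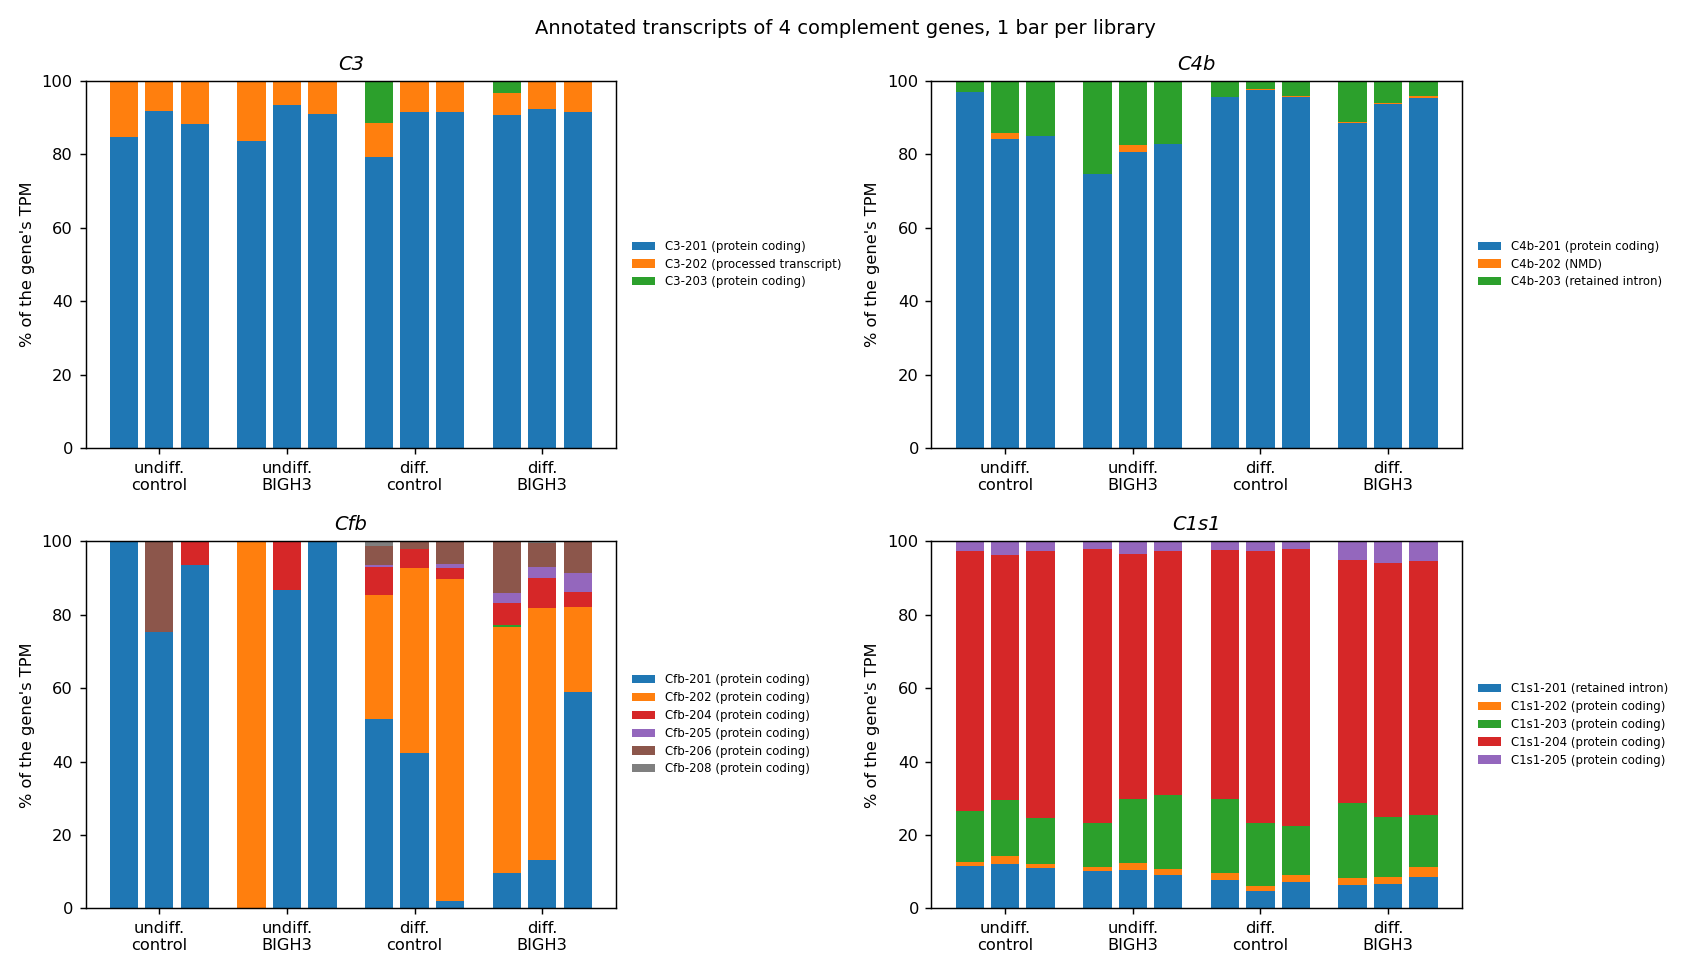
Share of each gene's TPM (vertical axis, percent) assigned to its annotated transcripts, for C3, C4b, Cfb and C1s1, with 1 stacked bar per library in 4 groups. C3-201 holds most of C3 in every library, while the split of Cfb between Cfb-201 and Cfb-202 differs between libraries of the same group.

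Of 45 other complement genes listed, 19 could be tested. With BIGH3 in differentiated cells 7 of the 19 rose and 6 fell (median log2 fold change 0.20), where 22.6% of all genes rose and 22.9% fell, and in undifferentiated cells none was called (0.0204% of all genes). These counts include C5ar2 and Colec11, which passed the filter only through the higher group. Higher with BIGH3 in differentiated cells were the C1r-like protease gene C1rl (0.63, adjusted p = 1.57e-08), C1s2 (1.65, 0.00160, from 37 to 104 reads over the 3 libraries of each group), the lectin pathway protease gene Masp1 (0.20, 0.000962) and the scavenger collectin gene Colec12 (0.20, 0.00195). Cr1l, the rodent membrane regulator Crry (0.17, 0.0218), and Cfp, encoding properdin (0.66, 0.0496), rose as well. C5ar2, a C5a receptor, had 12, 0 and 17 reads in differentiated controls and 26, 38 and 20 with BIGH3; it passed the filter through the BIGH3 group alone. Lower were Vtn, encoding vitronectin, which blocks terminal complex insertion (-1.81 ± 0.18, 3.28e-08) and the collectin gene Colec10 (-0.96, 2.20e-08). The collectin gene Colec11 had 15, 20 and 22 reads in controls and 5, 2 and 2 with BIGH3, and passed the filter through the controls. Clu, encoding the terminal inhibitor clusterin (-0.18, 0.0149), C1qbp (-0.21, 0.00649) and Cd93 (-0.62, 0.0295) were lower too. Vtn fell from 10.8, 10.0 and 10.2 TPM to 3.00, 2.70 and 3.38 TPM with BIGH3, after a medium rise of 3.67 ± 0.20 (adjusted p = 2.34e-12).

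The medium without BIGH3 raised 7 of these 19 genes and lowered 6 (median log2 fold change 0.04), where 29.1% of all genes rose and 28.6% fell. After Vtn, the smallest adjusted p values belonged to Clu (0.87, 1.07e-10), Colec12 (0.70, 1.25e-10) and Masp1, which fell by 0.58 on the log2 scale (6.51e-10). Of the terminal genes Hc, C6, C7, C8a, C8b, C8g and C9, C8g alone could be tested. It had 534 reads over the 12 libraries and 1.69 to 4.11 TPM, and was called in none of the comparisons. The others were near 0: Hc, encoding C5, had 17 reads, C6 had 0, C7 had 9, C8a had 27, C8b had 0 and C9 had 33. Factor D (Cfd, 4 reads), factor I (Cfi, 96 reads), the C3a receptor (C3ar1, 1 read) and the C5a receptor C5ar1 (10 reads) were scarce as well.

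**Figure D4:**
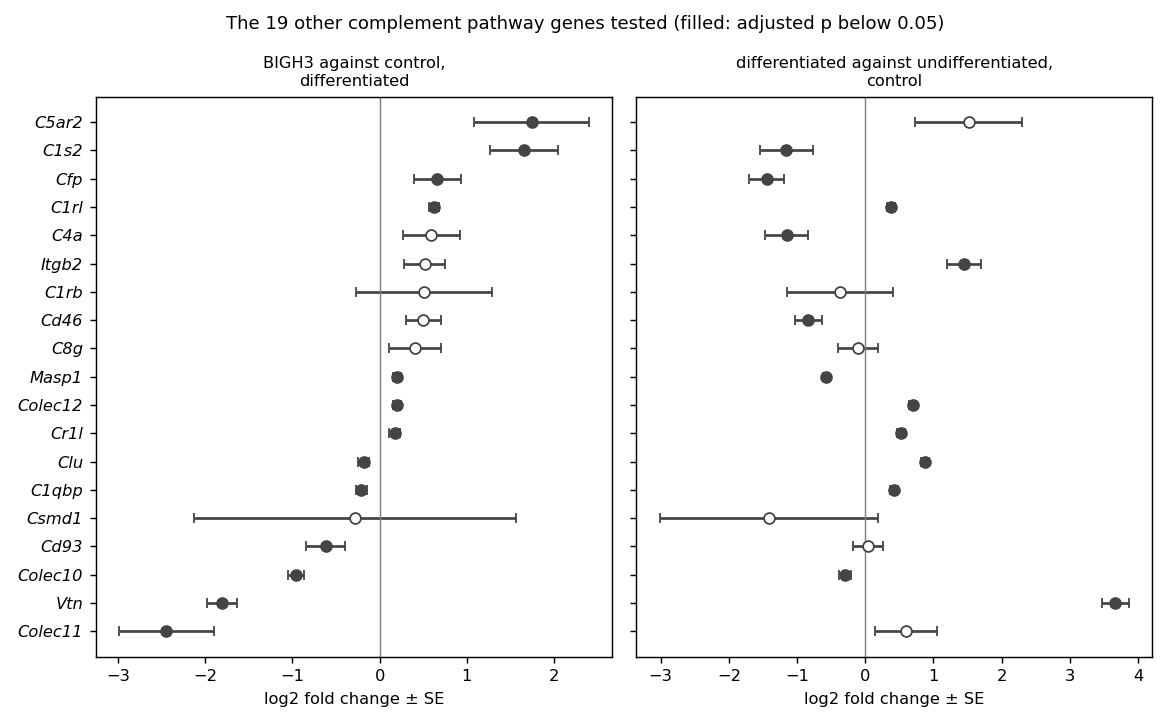
Log2 fold change with its standard error for the 19 other complement genes tested, with BIGH3 in differentiated cells (left) and with medium in controls (right); filled points passed an adjusted p below 0.05. C5ar2 is the highest point at left and Vtn the highest at right, while Vtn lies below 0 at left.

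The 2 genes whose log2 CPM was most like each member's over the 12 libraries, among 10253 candidates, were ranked by Pearson r, which is dominated by the 4 group means. For C3 they were Tlr2 (r = 0.9975) and Fas (0.996), and for C4b Ampd3 and Thbs2 (both 0.999). For Cfb they were Itm2b and Ctsl (both 0.999), for C1ra Cxcl12 and Cp (both 0.997), and for C1s1 Cp (0.998) and Thbs2 (0.996). For Serping1 they were St6gal1 (0.991) and Tmx2 (0.986). C2 (Mcub, 0.951, and Edem3, 0.946) and Cd59a (Rpf2, 0.963, and Pdzd11, 0.962), with few reads, had lower values. Between members r was 0.99 for C4b with C1s1 and 0.985 for C4b with Cfb. For C3 it was 0.82 with C1ra, 0.77 with C1s1, 0.74 with C4b, 0.69 with Serping1 and 0.625 with Cfb. With C2 and Cd59a, both from few reads, C3 had 0.061 and -0.095.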

How the data were processed

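Per the submitters' processing notes, reads were handled with FastQC, cutadapt, Salmon and StringTie on mm10; the versions are not given in the sources used here. Libraries were made with a KAPA kit, per the labels. The authors deposited, per the file headers, estimated counts (expected read numbers that need not be whole), TPM, and lengths and effective lengths per transcript.

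Transcripts were matched without version to GENCODE M21 on GRCm38: 137063 of 147828 (92.7%), the others holding 1.28% to 3.67% of a library's reads. Estimated counts were summed per gene and rounded, and TPM was summed. Genes kept by filterByExpr were scaled by TMM and fitted in edgeR 4.0.16 (R 4.3.3, quasi-likelihood, robust, 1 term per group, 12 libraries, 8 residual degrees of freedom), two-sided, with Benjamini-Hochberg adjustment over 14711 genes. The procedure was tested on simulated data. Alternatives used DESeq2 1.42.0, limma 3.58.1 on log2(TPM + 0.5), other scalings and filters, length offsets, a replicate block, added partner genes and left-out libraries.

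The complement genes, the pathway and marker lists and the rule for named genes were chosen with earlier results of these data known. By the rule all 9 genes and their near-identical partners are named, listed pathway genes called in either of the BIGH3 differentiated or control medium comparisons may be, and 2 genes by likeness per member (mean log2 CPM of at least 2). Genes that had no entry in the promoter table were not searched. A result that the rule would name is not reported here.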

Additional observations from a re-analysis of the deposited data

Results flagged for a closer look

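The BIGH3 effect differed between differentiated and undifferentiated cells for C3, C4b, Cfb, C1ra and C1s1 by the interaction term of edgeR's quasi-likelihood test. With Serping1 and Colec11 counted, 6 of the 8 described genes tested and 8 of the 19 other complement genes tested were called (32.2% of all genes). Values are differences in log2 fold change, differentiated minus undifferentiated. Among the 9 genes described, the effect was higher in differentiated cells for C3 (4.27, adjusted p = 2.39e-20), Serping1 (3.27, 0.0483), C4b (1.81, 1.27e-09), Cfb (1.27, 3.37e-07), C1ra (0.60, 2.55e-07) and C1s1 (0.47, 5.60e-06). Among the other complement genes it was higher for C1s2 (2.55, 0.00111), Cfp (1.21, 0.0143), C1rl (0.60, 9.96e-06) and Masp1 (0.17, 0.0482). It was lower for Colec11 (-2.19, 0.0248), Vtn (-2.06, 1.05e-05), Colec10 (-0.73, 9.54e-05) and C1qbp (-0.27, 0.0162). Serping1 and Colec11 passed the low-count filter only through groups where they were higher, so their values here are descriptions. Without undifferentiated control 2 the Serping1 value was 0.25 (adjusted p = 0.995).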

How the results depend on the processing

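None of the 9 complement genes described was called for BIGH3 in undifferentiated cells under any alternative run. C1ra, C1s1, C4b, C3 and Cfb were called under every one for BIGH3 in differentiated cells, medium in controls, medium with BIGH3 and the interaction. All genes called numbered 5156 to 6824, 7414 to 8829, 7258 to 8411 and 3326 to 4757 in that order. With C2, Serping1 and Cd59a counted as well, the members called were 6 to 7, 7 to 8, 6 and 5 to 6. Those genes were kept through groups where they were higher, so their calls between the states, and that of Cd59a with BIGH3, are descriptions. Of 715 values of single members under an alternative, 695 kept their side of the threshold, 20 were no longer called and 0 reversed. Among those never called, 18 changed sign. The 715 include BIGH3 in undifferentiated cells, where there was no call to lose. They also include C2, Serping1 and Cd59a between the states, where the filter favoured a rise. All alternatives reused the same 12 libraries. The 20 were those of Cd59a, C2 and the interaction of Serping1, all from few reads and kept by the filter through their higher groups. The interaction of Serping1 was lost with length offsets (adjusted p = 0.0517), without the 3 (0.984) or 4 (0.884) libraries with most liver transcripts, and without any one library other than undifferentiated control 1 or 3 (0.0705 to 0.995). The causes were not tested. The count of all genes called with BIGH3 in undifferentiated cells, 3, was 8 by DESeq2, 21 without a low-count filter, 1 with length offsets, 1 on log2 TPM, 0 with the compared groups alone, and 1 or 5 without 3 or 4 liver libraries. Leaving out 1 library at a time gave 0 to 3, with 0 without undifferentiated control 1 and 1 without control 2.

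Replicate numbers did not pair the libraries: same-number deviations correlated at -0.224 to 0.35, and in 3 of 12 pairings a library was closest to its own number. With a replicate block C1ra, C1s1, C4b, C3 and Cfb kept all their calls, and no member was called for BIGH3 in undifferentiated cells. The interaction of Serping1 was lost (adjusted p = 0.0718). The numbers of all genes called over the alternatives are given above. Library totals and log2 TPM shifted the median of all genes in the control medium comparison by -0.16 and -0.28. Depth limited C2, Serping1 in undifferentiated cells, Cd55 and Cd59a most.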
